A study of Mus musculus with 12 samples.

Results

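Genes whose products fill or accompany the granules of neutrophils, 9 in all, were followed through cultured mouse osteoclasts: S100a8, S100a9, Camp, Ngp, Ltf, Lcn2, Elane, Mpo and Retnlg. They were taken by name as a fixed list of 9 among the 55414 gene IDs in the deposited count tables. All 9 were matched to a single ID and all 9 passed the filter on low counts. The libraries are bulk RNA, so fewer cells of a type and less RNA per cell cannot be told apart in any value below.

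The study measured RNA in osteoclasts, the multinucleated cells that resorb bone, grown from bone marrow macrophages of male mice aged 7 to 8 weeks. Cells were grown with M-CSF, the macrophage growth factor (30 ng/ml), and from day 3 also with RANKL, the cytokine that drives osteoclast formation, for 4 days. The 4 groups of 3 libraries were Notch2 mutant Hes1 deletion, wild type Hes1 deletion, Notch2 mutant Hes1 loxP and wild type Hes1 loxP, so the last group, like the third, carries a Hes1 gene labelled loxP and not an unaltered one. The labels call the 3 libraries of a group biological replicates, and the source mice are littermates. The sources used here do not give the Notch2 mutation, the strain, the way Hes1 was deleted or whether mice were pooled.

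Neutrophils store antimicrobial proteins in granules that are laid down one after another as the cell matures in bone marrow. Azurophil granules come first and carry myeloperoxidase and serine proteases such as elastase. Specific granules follow and carry lactoferrin, the cathelicidin precursor and lipocalin 2, while the calcium-binding S100 pair S100A8 and S100A9 fills the cytosol. Macrophages and their progenitors can also transcribe several of these genes, so a transcript alone does not name the cell that holds it.

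The genes lie in few places of the genome (GRCm38, GENCODE M21 positions, all protein coding). S100a8 (chromosome 3, 90668978 to 90670035, plus strand) and S100a9 (chromosome 3, 90692632 to 90695721, minus strand) are neighbours 22.6 kb apart. Camp (chromosome 9, 109847379 to 109849617, minus strand), Ngp (chromosome 9, 110419747 to 110423012, plus strand) and Ltf (chromosome 9, 111019271 to 111042767, plus strand) lie in a row with gaps of 0.570 and 0.596 Mb. Lcn2 (chromosome 2, 32384633 to 32388252, minus strand), Elane (chromosome 10, 79886247 to 79888215, plus strand), Mpo (chromosome 11, 87793581 to 87804413, plus strand) and Retnlg (chromosome 16, 48872621 to 48874496, plus strand) have no other gene of the list on their chromosome. Prtn3, an azurophil gene outside the list, lies near Elane (chromosome 10, 79874476 to 79883174, plus strand). On chromosome 3 Notch2 lies 7.34 Mb from S100a8 and 7.32 Mb from S100a9, and the osteoclast gene Ctsk 4.83 and 4.80 Mb from them. Hes1 lies 18.8 Mb from Retnlg on chromosome 16. Whether sequence linked to the altered genes differs between the groups was not tested. The exons of Mpo overlap the antisense gene Gm11505. The sources used here give no strand setting for the counting, so how reads of the overlap were counted is not known. Exons of other genes named further on, such as Prtn3 and Cebpb, also overlap antisense genes.

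Sequence upstream of the start sites is shown because 6 of the genes varied together over the libraries, as described further on. Windows of 250 bases before the RefSeq start (RefSeq table, GRCm38.p6) were searched on both strands for TTGCNNAA, the letters of a C/EBP type site, GAGGAAG, those of a PU.1 type site, and AGGAAGTG. C/EBP proteins and PU.1 are transcription factors of the myeloid lineage. TTGCNNAA was present in the windows of 5 of 9 genes (S100a9, Ngp, Ltf, Lcn2 and Retnlg) and in 9.56% of 32851 windows of that length. GAGGAAG was present in 4 of 9 (S100a8, Lcn2, Elane and Mpo) and in 10.6% of windows. AGGAAGTG was present in S100a8 alone of the 9, overlapping its GAGGAAG match, and in 3.14% of windows. Camp held none of the 3. The sequences below are, for all genes but Lcn2, the parts of these windows outside annotated exons, read on the strand of the gene, with the matched letters in capitals. They set S100 and specific granule genes first and the azurophil genes after them, and Lcn2, whose matches both lie inside an annotated exon, is given as the TTGCNNAA match with its flanks.
S100a8, chr3:90668821-90668977, plus strand: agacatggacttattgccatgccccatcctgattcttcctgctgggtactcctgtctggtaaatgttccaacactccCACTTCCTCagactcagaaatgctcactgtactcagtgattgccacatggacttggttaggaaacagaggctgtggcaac
S100a9, chr3:90695722-90695971, minus strand: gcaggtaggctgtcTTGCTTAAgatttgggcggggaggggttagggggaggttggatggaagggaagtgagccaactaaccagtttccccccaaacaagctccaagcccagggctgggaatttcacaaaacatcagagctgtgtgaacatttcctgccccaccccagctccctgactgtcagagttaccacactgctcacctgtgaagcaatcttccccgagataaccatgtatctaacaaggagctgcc
Ngp, chr9:110419558-110419746, plus strand: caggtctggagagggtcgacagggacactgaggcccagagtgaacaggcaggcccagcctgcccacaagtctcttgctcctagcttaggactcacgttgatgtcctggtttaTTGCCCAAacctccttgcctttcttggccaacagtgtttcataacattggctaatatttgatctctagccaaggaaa
Ltf, chr9:111019042-111019270, plus strand: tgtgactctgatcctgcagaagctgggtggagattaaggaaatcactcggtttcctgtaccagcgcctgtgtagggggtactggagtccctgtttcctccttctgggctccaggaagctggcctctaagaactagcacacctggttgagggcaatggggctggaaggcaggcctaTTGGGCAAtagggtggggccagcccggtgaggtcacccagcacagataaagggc
Lcn2, chr2:32387937-32387966, minus strand: agcccttcctgTTGCTCAAccttgcacagt
Elane, chr10:79886062-79886246, plus strand: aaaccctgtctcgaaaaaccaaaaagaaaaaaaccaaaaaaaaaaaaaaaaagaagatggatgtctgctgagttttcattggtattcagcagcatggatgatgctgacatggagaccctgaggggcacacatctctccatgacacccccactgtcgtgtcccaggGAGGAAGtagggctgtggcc
Mpo, chr11:87793534-87793580, plus strand: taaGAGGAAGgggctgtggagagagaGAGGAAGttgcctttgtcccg
The match in Ltf and the one inside the first annotated exon of Ngp share the letters TTGGGCAA, the reverse complement of TTGCCCAA, which is also the other match of Ngp. A match of letters is a description of the sequence and does not show that a factor binds there.

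The libraries held 13832368 to 19293772 counts assigned to genes, and replicates differed by more than sampling noise. Hes1 itself was scarce, with 0 to 1 counts in Notch2 mutant Hes1 deletion, 0 to 2 in wild type Hes1 deletion, 2 to 3 in Notch2 mutant Hes1 loxP and 6 to 11 in wild type Hes1 loxP libraries. Notch2 stood between 143 and 175 CPM (counts scaled to 1e6 assigned counts) in every library, and its summed count does not check the mutation. The 10 osteoclast markers, all detected, summed to 31219 to 50298 CPM. The 14 neutrophil surface and maturation markers, all detected, summed to 113 to 160 CPM. Among them Ly6g had only 11 to 20 counts summed over a group, while Fpr1 had 348 to 639 and Mmp8 449 to 880 counts per library. Of 6 erythroid markers 5 had 0 counts in every library and the sixth at most 2.

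Transcripts of the granule genes were a minor part of the RNA. Together the 9 genes took 0.0174 to 0.0315% of a library's counts, the most in wild type Hes1 loxP replicate 3. Per length, S100a9 was the highest with a level of 103 CPM per kb of exon (mean over 12 libraries), followed by S100a8 with 51.4 and Ngp with 37.3 CPM per kb. The other 6 genes had mean levels between 6.34 CPM per kb (Mpo) and 8.65 CPM per kb (Camp). On the same scale the osteoclast protease gene Ctsk had a level of 4843 and Acp5, the gene of the osteoclast enzyme TRAP, one of 3902 CPM per kb. Lyz2, a lysozyme that macrophages and neutrophils both make, had a level of 4348 CPM per kb.

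S100a8 and S100a9 encode the subunits of calprotectin, which binds calcium and sequesters zinc and manganese. S100a8 levels were 31.3, 33.5 and 30.0 CPM in Notch2 mutant Hes1 deletion and 28.3, 32.0 and 39.0 CPM in wild type Hes1 deletion libraries. They were 35.6, 41.4 and 26.5 CPM in Notch2 mutant Hes1 loxP and 38.7, 43.5 and 48.4 CPM in wild type Hes1 loxP libraries. The wild type Hes1 loxP group had the highest mean and the Notch2 mutant Hes1 deletion group the lowest, and every neighbour in that order overlapped the next. S100a9 averaged 46.3 ± 4.52 and 51.3 ± 7.37 CPM in the Notch2 mutant and wild type Hes1 deletion groups, and 53.9 ± 9.07 and 62.8 ± 11.7 CPM in the Notch2 mutant and wild type Hes1 loxP groups (SD, n = 3 each). The order of the groups was that of S100a8, again with overlap between all neighbours. The ratio of S100a9 to S100a8 counts kept between 1.30 and 1.71 in all 12 libraries.

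Camp encodes the precursor of the cathelicidin peptide CRAMP, and its levels set the groups furthest apart. It had 5.22, 5.60 and 3.30 CPM in Notch2 mutant Hes1 deletion and 4.98, 5.005 and 7.21 CPM in wild type Hes1 deletion libraries. It had 6.29, 6.59 and 5.68 CPM in Notch2 mutant Hes1 loxP and 7.14, 9.59 and 12.1 CPM in wild type Hes1 loxP libraries. All 3 wild type Hes1 loxP libraries lay above all Notch2 mutant libraries of either Hes1 state, and 1 wild type Hes1 deletion library, replicate 3, reached into their range. These levels rest on 53 to 217 counts per library.

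Ngp, a neutrophil granule protein of the cystatin fold, and Ltf, the iron-binding lactoferrin, followed each other closely. Ngp had 31.8, 42.0 and 28.7 CPM in Notch2 mutant Hes1 deletion and 37.7, 37.1 and 49.8 CPM in wild type Hes1 deletion libraries. It had 49.6, 50.4 and 37.7 CPM in Notch2 mutant Hes1 loxP and 50.2, 56.5 and 75.4 CPM in wild type Hes1 loxP libraries. The 3 wild type Hes1 deletion libraries lay below the 3 wild type Hes1 loxP libraries, by a margin of 49.8 against 50.2 CPM at the nearest. Ltf averaged 18.9 ± 4.04 CPM in Notch2 mutant Hes1 deletion, 22.0 ± 6.22 CPM in wild type Hes1 deletion, 23.9 ± 3.18 CPM in Notch2 mutant Hes1 loxP and 33.1 ± 8.86 CPM in wild type Hes1 loxP libraries (SD, n = 3 each). The ratio of Ngp to Ltf counts stayed between 1.71 and 2.05 while Ngp itself varied 2.63-fold between the highest and the lowest library.

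Lcn2, the siderophore-binding lipocalin 2, which macrophages also make, repeated the order with a smaller span. It averaged 18.7 ± 1.58 CPM in Notch2 mutant Hes1 deletion, 20.5 ± 3.76 CPM in wild type Hes1 deletion, 21.4 ± 2.43 CPM in Notch2 mutant Hes1 loxP and 27.0 ± 4.23 CPM in wild type Hes1 loxP libraries (SD, n = 3 each). The highest library for both S100 genes and all 4 specific granule genes was wild type Hes1 loxP replicate 3. The lowest was Notch2 mutant Hes1 deletion replicate 3 for 5 of them and Notch2 mutant Hes1 loxP replicate 3 for S100a8.

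Elane, the gene of neutrophil elastase, and Mpo, that of myeloperoxidase, did not share this order. Elane had 5.35, 8.00 and 7.48 CPM in Notch2 mutant Hes1 deletion and 3.99, 9.24 and 7.77 CPM in wild type Hes1 deletion libraries. It had 4.99, 6.42 and 6.41 CPM in Notch2 mutant Hes1 loxP and 8.51, 7.10 and 7.29 CPM in wild type Hes1 loxP libraries. The Notch2 mutant Hes1 loxP libraries lay below the wild type Hes1 loxP libraries, while both Hes1 deletion groups spanned a wider range than either loxP group. Mpo averaged 22.9 ± 8.88 CPM in Notch2 mutant Hes1 deletion, 22.8 ± 7.74 CPM in wild type Hes1 deletion, 18.5 ± 3.71 CPM in Notch2 mutant Hes1 loxP and 22.6 ± 6.08 CPM in wild type Hes1 loxP libraries (SD, n = 3 each). Its lowest library was Notch2 mutant Hes1 deletion replicate 1 and its highest replicate 2 of the same group, so its whole range of 13.2 to 30.7 CPM was found within 1 group.

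Retnlg, which encodes the secreted resistin-like protein gamma, had the reverse order of means. It averaged 4.75 ± 0.643 CPM in Notch2 mutant Hes1 deletion, 4.38 ± 0.859 CPM in wild type Hes1 deletion, 4.25 ± 0.792 CPM in Notch2 mutant Hes1 loxP and 3.35 ± 1.61 CPM in wild type Hes1 loxP libraries (SD, n = 3 each). The low mean of the last group came from replicate 1, with 1.51 CPM or 21 counts, against 4.04 and 4.51 CPM in replicates 2 and 3. The other 11 libraries held 50 to 92 counts.

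**Figure D1:**
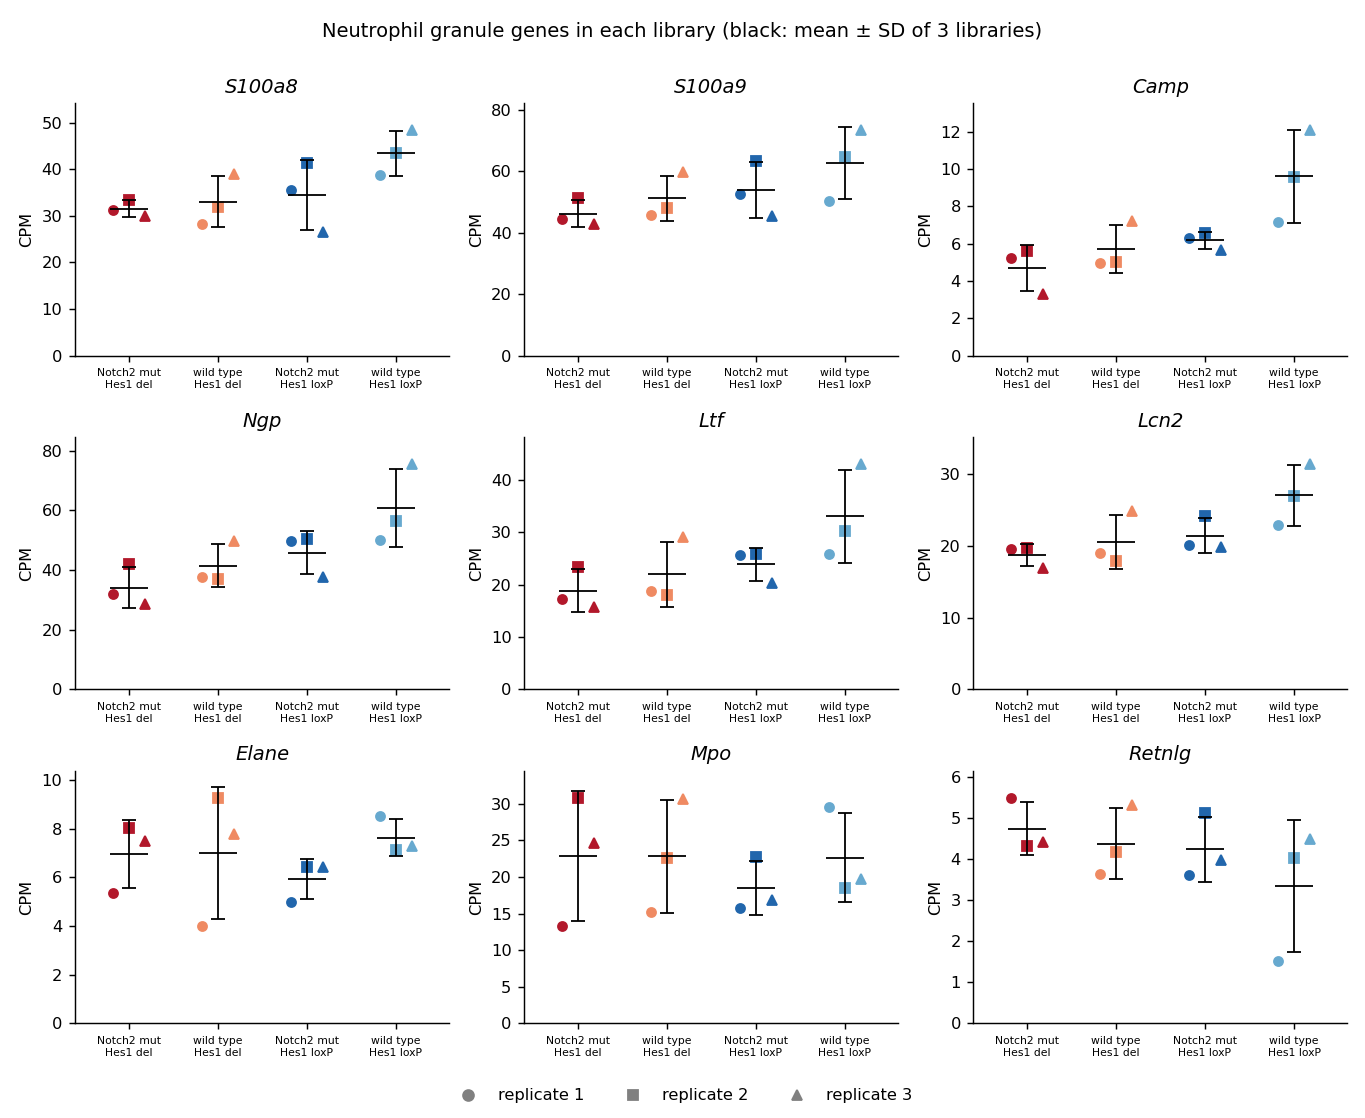
Level in CPM (vertical axis, from 0) of each of the 9 genes in the 12 libraries, grouped along the horizontal axis, with the mean ± SD of 3 libraries in black and 1 marker shape per replicate number. In the S100 and specific granule panels wild type Hes1 loxP replicate 3 is the highest point, while Elane and Mpo spread within the groups and Retnlg has 1 low point at 1.51 CPM.

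With the Hes1 deletion in wild type cells, 6 of the 9 genes had an estimate below 0 whose interval left out 0, and no gene passed the adjusted threshold. The values were -0.78 ± 0.20 for Camp, -0.62 ± 0.18 for Ltf, -0.58 ± 0.15 for Ngp, -0.43 ± 0.12 for Lcn2, -0.42 ± 0.13 for S100a8 and -0.32 ± 0.13 for S100a9 (log2 fold change ± SE, Hes1 deletion over Hes1 loxP, n = 3 each, edgeR quasi-likelihood test). Their adjusted p-values in edgeR ran from 0.455 for Camp to 0.762 for S100a9, and 0.0373% of the 13403 genes tested passed at 0.05. At an unadjusted p under 0.05 these 6 were lower, where 3.36% of all genes tested were lower at that level. Pairs of these 6 correlated at 0.843 to 0.982 over the libraries, so here and below their number does not count separate observations. Elane stood at -0.14 ± 0.22, Mpo at 0.00 ± 0.25 and Retnlg at 0.32 ± 0.27. The median of the 9 was -0.42, against 0.00 over all genes tested. On CPM only Ngp had groups that did not overlap, with 3.57% of all genes lower without overlap. Without wild type Hes1 loxP replicate 1 the estimate of Retnlg was 0.01.

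With the Hes1 deletion in Notch2 mutant cells the estimates of the same 6 genes lay closer to 0, a difference tested by the interaction further on. Ngp stood at -0.45 ± 0.16 (log2 fold change ± SE, n = 3 each, edgeR adjusted p = 0.829), Camp at -0.43 ± 0.21, Ltf at -0.36 ± 0.19, S100a9 at -0.25 ± 0.13, Lcn2 at -0.23 ± 0.13 and S100a8 at -0.16 ± 0.13. None of the 9 passed at an adjusted p of 0.05, where 0.0373% of genes did. At an unadjusted p under 0.05 Ngp alone was lower, with 2.27% of all genes lower at that level. Camp and Lcn2 had CPM values without overlap between the groups, Camp with 3.30 to 5.60 CPM in Notch2 mutant Hes1 deletion against 5.68 to 6.59 CPM in Notch2 mutant Hes1 loxP libraries, where 2.93% of genes were lower without overlap. Elane stood at 0.19 ± 0.23, Mpo at 0.28 ± 0.26 and Retnlg at 0.12 ± 0.26, and the median of the 9 was -0.23 against 0.00 over all genes.

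Averaged over both Notch2 genotypes, which sets 6 libraries against 6, the Hes1 deletion gave 0.000166 for Ngp, the smallest unadjusted p of any member in the 7 comparisons. Ngp averaged 37.9 ± 7.50 CPM in Hes1 deletion and 53.3 ± 12.5 CPM in Hes1 loxP libraries (SD, n = 6 each), and its estimate was -0.51 ± 0.11 (log2 fold change ± SE, edgeR adjusted p = 0.139). Camp averaged 5.22 ± 1.25 CPM in Hes1 deletion and 7.89 ± 2.45 CPM in Hes1 loxP libraries (SD, n = 6 each), at -0.60 ± 0.15 with an edgeR adjusted p of 0.238. No member passed, where 0.0821% of genes did, and 6 members were lower at an unadjusted p under 0.05, with 3.69% of all genes lower at that level. No member had groups without overlap, where 0.0895% of genes were lower without overlap. Ngp passed in edgeR when any 1 of 3 libraries was left out. These were Notch2 mutant Hes1 deletion replicate 2 (adjusted p = 0.0385), wild type Hes1 deletion replicate 3 (0.0374) and wild type Hes1 loxP replicate 1 (0.0352). In these fits, in that order, 13 of 13665, 15 of 13661 and 16 of 13671 genes tested were called. Without any 1 of the other 9 libraries Ngp did not pass, and its adjusted p reached 0.356. Elane stood at 0.03 ± 0.16, Mpo at 0.14 ± 0.18 and Retnlg at 0.22 ± 0.19.

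With Hes1 loxP, the estimates of the Notch2 mutant were below 0 for 8 of the 9 genes, against 49.1% of all genes tested. Camp stood at -0.62 ± 0.20 (log2 fold change ± SE, Notch2 mutant over wild type, n = 3 each, edgeR adjusted p = 0.146), Ltf at -0.45 ± 0.18, Ngp at -0.39 ± 0.15, and Lcn2 and S100a8 both at -0.32, with SE 0.12 and 0.13. These 5 were lower at an unadjusted p under 0.05, where 6.96% of all genes were, and none passed at an adjusted p of 0.05, where 0.776% of genes did. S100a9 stood at -0.20 ± 0.13, Elane at -0.32 ± 0.22, Mpo at -0.25 ± 0.26 and Retnlg at 0.33 ± 0.27. Camp, Ltf and Elane had no overlap between the groups on CPM, with 11.1% of all genes lower without overlap. The nearest values of Ltf were 25.8 CPM in Notch2 mutant and 26.0 CPM in wild type libraries. The median of the 9 was -0.32, against 0.00 over all genes. Without wild type Hes1 loxP replicate 1 the estimate of Retnlg was 0.02. Without wild type Hes1 loxP replicate 3 no member was below an unadjusted p of 0.05 and the median was -0.22, and without Notch2 mutant Hes1 loxP replicate 3 only 1 was. This comparison and that of the Hes1 deletion in wild type share the wild type Hes1 loxP libraries, so the likeness of the 2 sets of estimates is in part built in.

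With the Hes1 deletion present in both, Notch2 mutant and wild type libraries lay closer together for the same 6 genes. The estimates ran from -0.27 ± 0.22 for Camp and -0.26 ± 0.16 for Ngp to 0.13 ± 0.26 for Retnlg, with a median of -0.12 against 0.00 over all genes. None of the 9 passed in edgeR, where 0.0149% of genes did, none was lower at an unadjusted p under 0.05 (3.48% of genes) and none had lower groups without overlap (7.48% of genes). Without wild type Hes1 deletion replicate 3 the median was 0.04. Averaged over both Hes1 states, the Notch2 mutant stood at -0.44 ± 0.15 for Camp (edgeR adjusted p = 0.120) and at -0.33 ± 0.11 for Ngp (adjusted p = 0.125). No member passed, where 1.89% of genes did. Camp, Ngp, Ltf and Lcn2 were lower at an unadjusted p under 0.05, with 8.18% of all genes lower at that level. No member was lower without overlap, where 0.940% of genes were.

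Whether the Notch2 difference itself depended on Hes1 was tested by the interaction, and no member passed in edgeR (adjusted p = 0.999 for each), nor did any other gene. Without wild type Hes1 deletion replicate 3, 12 genes were called, none of them a member. In that fit 3 members had an unadjusted p under 0.05, and the share of all genes at that level was not taken. The interaction estimate was 0.36 for Camp, with an interval of -0.26 to 0.97, and 0.12 for Ngp, with an interval of -0.33 to 0.58 (95%). For 8 of the 9 genes it was above 0, where 50.8% of all genes were below 0, with a median of 0.26 against 0.00 over all genes. None had an unadjusted p under 0.05, where 3.78% of all genes did. These intervals leave room for differences as large as the effects themselves.

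**Figure D2:**
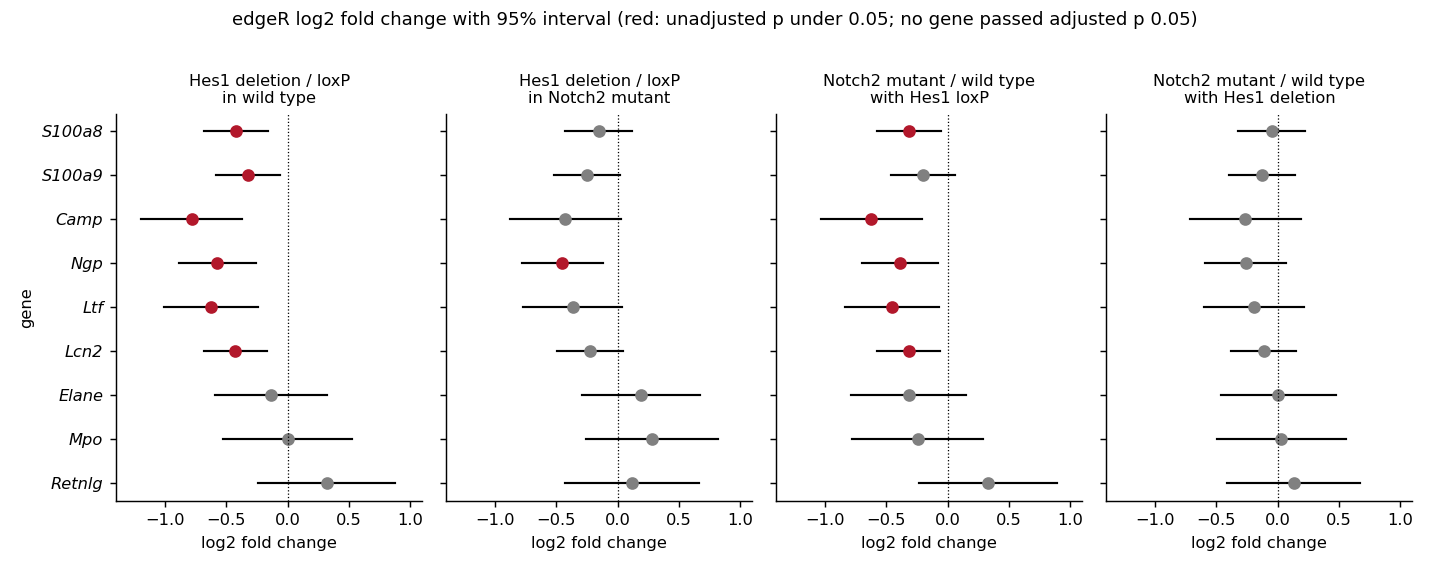
Log2 fold change (horizontal axis) of the 9 genes in the 4 simple comparisons, as the edgeR estimate with its 95% interval, red where the unadjusted p was under 0.05. Red points are 6 for the Hes1 deletion in wild type, 1 for the Hes1 deletion in Notch2 mutant, 5 for the Notch2 mutant with Hes1 loxP and 0 for the Notch2 mutant when Hes1 was deleted, and no gene passed after adjustment.

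The sums by granule class ordered the libraries differently. Camp, Ngp, Ltf and Lcn2 summed to 76.5 ± 13.2 CPM in Notch2 mutant Hes1 deletion, 89.8 ± 18.4 CPM in wild type Hes1 deletion, 97.4 ± 12.3 CPM in Notch2 mutant Hes1 loxP and 130 ± 28.5 CPM in wild type Hes1 loxP libraries (SD, n = 3 each). Elane and Mpo summed to 29.8 ± 10.3, 29.8 ± 9.80, 24.4 ± 4.28 and 30.3 ± 6.84 CPM in Notch2 mutant Hes1 deletion, wild type Hes1 deletion, Notch2 mutant Hes1 loxP and wild type Hes1 loxP libraries (SD, n = 3 each). The azurophil sum was thus near the same level in 3 groups, and all 4 groups overlapped in it. The quotient of the specific sum over the azurophil sum ran from 2.02 in Notch2 mutant Hes1 deletion replicate 3 to 5.99 in wild type Hes1 loxP replicate 3, and the 4 groups overlapped in it.

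**Figure D3:**
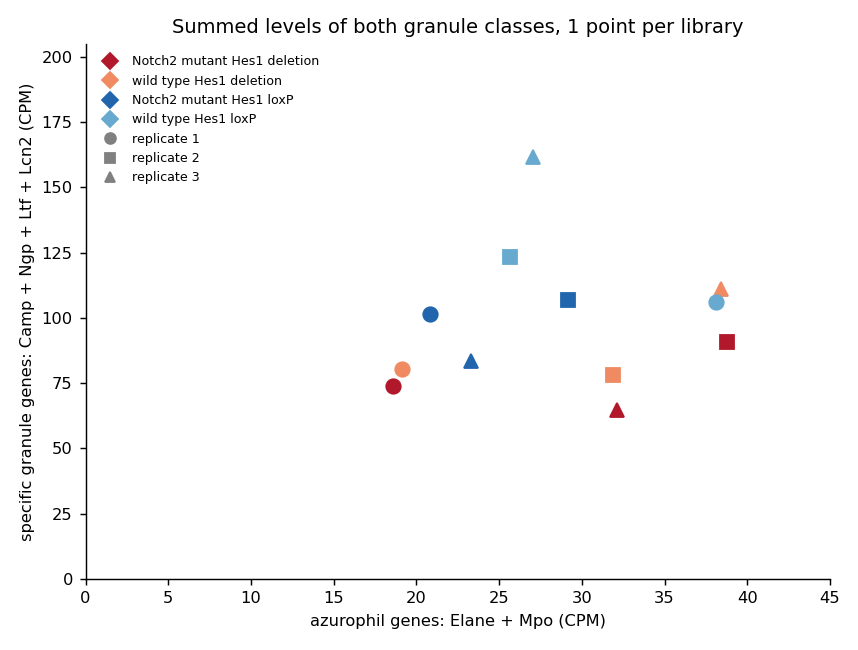
Summed CPM of the 2 azurophil genes (horizontal axis) and of the 4 specific granule genes (vertical axis), both from 0, with 1 point per library, coloured by group and shaped by replicate number. Points at an azurophil sum of 38.1 to 38.7 CPM come from 3 groups, and the highest specific sum, 162 CPM, sits at an azurophil sum of 27.0 CPM.

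The same division appeared in the correlations of log2 CPM over the 12 libraries, which are given as a description and share library depth and the group differences. Among the 2 S100 and 4 specific granule genes all 15 pairs had a Pearson correlation of 0.843 to 0.982, highest for Ngp with Ltf. Taken as deviations from the group means, which leaves out the group differences, the 15 pairs still had correlations of 0.659 to 0.976. Elane and Mpo correlated with each other at 0.768, and at 0.767 within groups. Either of them with any of the 6 had 0.00 to 0.30. Retnlg had correlations of -0.15 to 0.16 with the 6 over all libraries, and of 0.514 to 0.773 in the deviations from the group means.

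**Figure D4:**
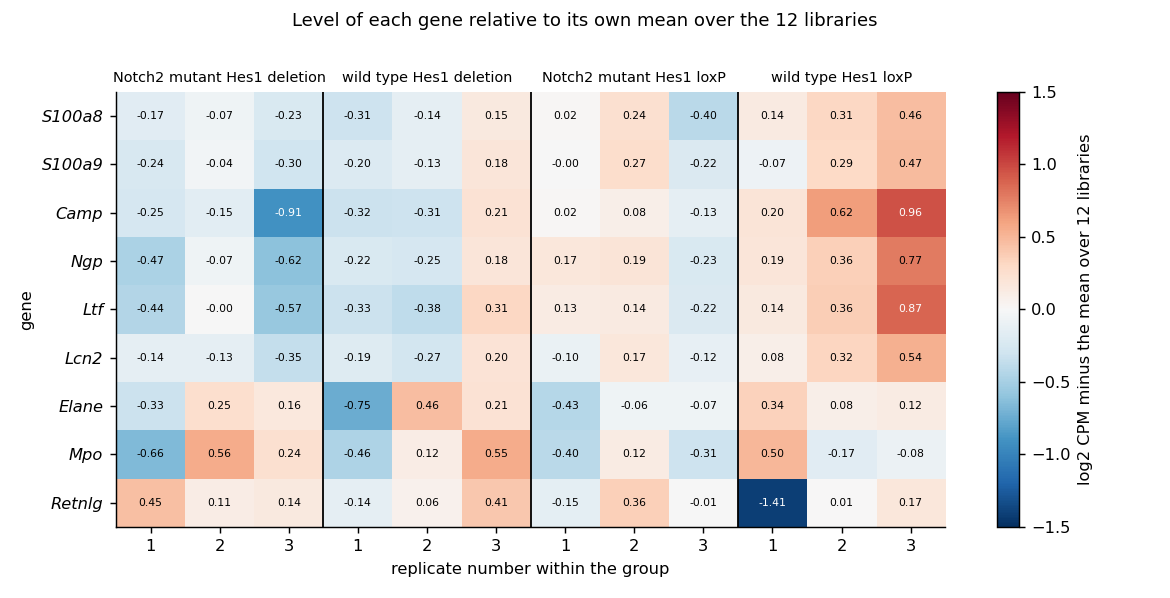
Each cell gives a gene's log2 CPM in 1 library minus that gene's mean over the 12 libraries, with genes down the page and libraries by group across, red above and blue below the mean. The 6 upper rows have their highest values in the same library, reaching 0.96 for Camp in wild type Hes1 loxP replicate 3 and -0.91 in Notch2 mutant Hes1 deletion replicate 3, while Elane and Mpo follow another pattern and Retnlg is at -1.41 in wild type Hes1 loxP replicate 1.

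The genes whose level over the 12 libraries was most like the mean of the 9 (Pearson correlation of log2 CPM with the mean of the standardised members, among 11132 genes) were not among the neutrophil lists used here. They were Sulf2, an extracellular sulfatase (0.909), Slc48a1, a haem transporter (0.897), Ubap2l (0.878), Eya1, Entpd7, Pdia4, Zdhhc16, Htt, Lrrc59 and Dnajb11 (0.859). Pdia4 and Dnajb11 are chaperones of the endoplasmic reticulum. None of the 10 passed in any of the comparisons. Sulf2 had the estimate furthest from 0 among them, at -0.38 ± 0.13 for the Hes1 deletion in wild type (edgeR adjusted p = 0.681). The mean of the 9 mostly followed the S100 and specific granule genes, which correlated with it at 0.883 (Camp) to 0.956 (S100a9). Elane correlated with it at 0.423, Mpo at 0.363 and Retnlg at 0.0536. Genes with clone-type names and genes of low mean level were left out of the ranking.

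Other genes of the neutrophil programme were counted from lists drawn up by function. Of 17 further specific and gelatinase granule genes, 16 had an estimate below 0 in the Notch2 mutant with Hes1 loxP, with a median of -0.25, and 1 fell past the threshold. Over all genes tested 49.1% were below 0 in that comparison, with a median of 0.00, and 0.776% were called, which is also the background of the counts for the lists that follow. This was Mmp8, the neutrophil collagenase, with 32.6 ± 0.888 CPM in Notch2 mutant and 45.4 ± 3.10 CPM in wild type libraries (SD, n = 3 each), at -0.46 ± 0.10 with an edgeR adjusted p of 0.0384. Mmp8 passed under 13 of its 19 alternatives and did not pass when any 1 of the 6 libraries compared was left out (adjusted p up to 0.108). With the Hes1 deletion in wild type, 13 of the 17 were below 0 with a median of -0.08, where 49.5% of all genes were below 0, and none passed, Mmp8 standing at -0.37 ± 0.10 (edgeR adjusted p = 0.502). Mmp9 and Lyz2 of this list are abundant in osteoclasts and macrophages, and Adam8 of this list stood at 608 to 886 CPM here. Which cells held the transcripts of this list was not tested. Of 9 tested genes of 10 further azurophil and progenitor-stage genes, 3 were below 0 in the Notch2 mutant with Hes1 loxP, and 4 for the Hes1 deletion in wild type, with medians of 0.17 and 0.04 and none called. This list also holds Hexa, at 1034 to 1360 CPM, and Cd63, at 418 to 518 CPM, against 10.8 to 19.6 CPM for Prtn3. The median of 0.17 is the estimate of Cd63. Prtn3, the proteinase 3 gene, stood at 0.20 ± 0.20 and 0.17 ± 0.19 in those 2 comparisons, and Ctsg, the cathepsin G gene, at 0.09 ± 0.28 and 0.06 ± 0.28.

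Surface and maturation genes of neutrophils were split evenly in the Notch2 mutant with Hes1 loxP, 6 of 12 tested being below 0, with a median of 0.05 and 1 gene lower past the threshold. It was Fpr1, the formyl peptide receptor, at -0.42 ± 0.10 (edgeR adjusted p = 0.0493), which passed under 7 of its 19 alternatives (adjusted p up to 0.184, without wild type Hes1 loxP replicate 1). Csf3r, the receptor for the granulocyte growth factor G-CSF, stood at -0.06 ± 0.14 there and at 0.09 ± 0.13 with the Hes1 deletion in wild type. Of the transcription factors of the granulocyte lineage, 8 of 11 tested were below 0 in the Notch2 mutant with Hes1 loxP and Cebpb alone fell, at -0.44 ± 0.09 (edgeR adjusted p = 0.0243), with 51.5 ± 4.84 CPM in Notch2 mutant and 71.2 ± 10.3 CPM in wild type libraries (SD, n = 3 each). Cebpb passed under 15 of its 19 alternatives and did not pass without Notch2 mutant Hes1 loxP replicate 2 or 3 or without wild type Hes1 loxP replicate 1 or 3 (adjusted p up to 0.116). Cebpe, the factor that drives the specific granule stage in neutrophils, stood at -0.09 ± 0.32 there and at -0.01 ± 0.31 with the Hes1 deletion in wild type.

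Among receptors and partners of the granule proteins, 7 of 11 tested were below 0 in the Notch2 mutant with Hes1 loxP. The lactoferrin receptor Lrp1 fell, at -0.36 ± 0.07 (edgeR adjusted p = 0.0247), as did Cd36, a scavenger receptor that also binds the S100 pair, at -0.73 ± 0.11 (adjusted p = 0.00660). Cd36 passed under all 19 alternatives and Lrp1 under 15, Lrp1 not passing without Notch2 mutant Hes1 loxP replicate 2 or 3 or without wild type Hes1 loxP replicate 1 or 2 (adjusted p up to 0.124). Tlr4, the receptor for extracellular S100A8 and S100A9, stood at -0.07 ± 0.09. Of the protease inhibitors, 4 of 6 tested were below 0, and Slpi, the inhibitor of neutrophil elastase, fell, with 34.5 ± 6.37 CPM in Notch2 mutant and 57.2 ± 5.85 CPM in wild type Hes1 loxP libraries (SD, n = 3 each), at -0.71 ± 0.10 with an edgeR adjusted p of 0.00242. Slpi passed under all 19 alternatives. Its estimate for the Hes1 deletion in wild type was -0.52 ± 0.09 (edgeR adjusted p = 0.0642). Of 7 tested S100 genes other than the pair, 4 were below 0 in the Notch2 mutant with Hes1 loxP and none passed, with a median of -0.01.

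**Figure D5:**
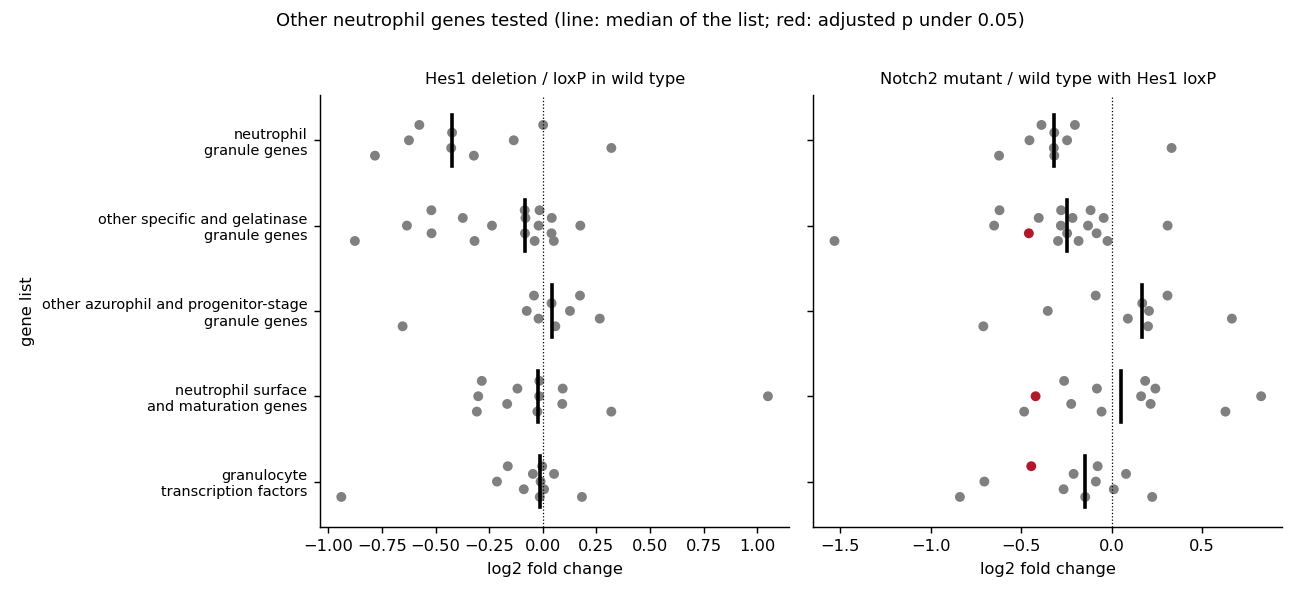
Log2 fold change (horizontal axis) of each tested gene of 5 lists, down the page, for the Hes1 deletion in wild type (left) and the Notch2 mutant with Hes1 loxP (right), with the list median as a line and red where the adjusted p was under 0.05. The red points on the right are Mmp8, Fpr1 and Cebpb, and the left panel has none.

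Marker lists of other cell types also differed between the groups. The 14 neutrophil surface and maturation markers, all of them detected, summed to 131 ± 6.50 CPM in Notch2 mutant Hes1 deletion, 138 ± 5.67 CPM in wild type Hes1 deletion, 120 ± 5.80 CPM in Notch2 mutant Hes1 loxP and 154 ± 8.88 CPM in wild type Hes1 loxP libraries (SD, n = 3 each). The lowest wild type Hes1 loxP library, at 143 CPM, lay above all others. Of the 13 tested, 10 were below 0 in the Notch2 mutant with Hes1 loxP, and 9 for the Hes1 deletion in wild type. All 14 markers also stand in the lists above, Mmp8, Fpr1 and Cebpe among them. These counts and sums therefore regroup genes already counted and add no further genes. The 9 granulocyte progenitor markers, all detected, ranged from 64.7 to 97.4 CPM and overlapped between all groups. The 10 stromal and osteoblast markers, with Lum and Bglap at no more than 3 counts in any library, summed to 237 ± 45.1 and 330 ± 10.6 CPM in Notch2 mutant and wild type Hes1 deletion libraries, and to 179 ± 64.2 and 263 ± 23.6 CPM in Notch2 mutant and wild type Hes1 loxP libraries (SD, n = 3 each). All 8 tested were below 0 in the Notch2 mutant with Hes1 loxP and all 8 above 0 with the Hes1 deletion in wild type. The 9 monocyte and macrophage markers ranged from 4379 to 4830 CPM with overlap between all groups, and 3 of them were lower past the threshold in the Notch2 mutant with Hes1 loxP, where 0.776% of all genes were called. The 6 lymphocyte markers summed to 1.01 to 4.01 CPM, with Cd3e and Cd3g at no more than 3 counts in any library, and the 5 eosinophil, basophil and mast cell markers to 0.579 to 2.77 CPM. The osteoclast markers summed to 39644 ± 2097 and 35193 ± 3451 CPM in Notch2 mutant and wild type Hes1 deletion libraries, and to 47877 ± 2352 and 39845 ± 1673 CPM in Notch2 mutant and wild type Hes1 loxP libraries (SD, n = 3 each). Of these 10 markers 9 were above 0 in the Notch2 mutant in either Hes1 state, and 6 were called higher in the Notch2 average, where 1.89% of genes were called. With the Hes1 deletion the list medians were -0.03 in wild type and -0.10 in Notch2 mutant, and Ctsk was the only marker called. Ctsk averaged 4586 ± 456 CPM in wild type Hes1 deletion and 9026 ± 209 CPM in wild type Hes1 loxP libraries (SD, n = 3 each). Ctsk fell with the Hes1 deletion, by 0.99 on the log2 scale in wild type and by 1.11 in Notch2 mutant libraries (edgeR adjusted p = 4.84e-07 and 8.89e-08). As the way Hes1 was deleted is not given, whether that way itself alters Ctsk or other genes was not tested. The part of these cell types in the values of the granule genes was not tested.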

How the data were processed

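RNA from 12 osteoclast cultures was sequenced as stranded paired-end libraries of 75 bp, per the labels' protocols. The authors deposited raw counts, whole numbers for each gene ID. The submitters' processing notes name the build GRCm38 and the tools HTSeq, HISAT2, DESeq2, Picard and SAMtools, with no versions. The 5 summary rows, 15.8 to 19.0% of each total, stayed out of library sizes and tests. Names came from GENCODE M21, which matched 52133 of 55414 IDs.

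Tests used edgeR 4.0.16 under R 4.3.3 (quasi-likelihood F-test, TMM, filterByExpr with minimum count 10 and minimum total 15, 13403 genes, all 12 libraries in 1 fit with a mean per group), two-sided, with Benjamini-Hochberg adjustment over all genes tested and a threshold of 0.05. Intervals are 95% and SE follow from the F statistic. CPM is taken over counts assigned to genes without TMM, and overlap of groups was judged on CPM. The p-values measure the spread between cultures. The fit was tested on simulated counts of 13248 genes, with 100 altered 1.5-fold and 100 altered 2-fold, all of a mean count of at least 50. For the Hes1 deletion in wild type 87% and 98% of these were recovered, with 13 false calls in that fit. The deposited counts gave 5 calls in that comparison, and adjustment is stricter where fewer genes are altered. These shares therefore do not tell how often a change of a member would be called. Alternatives tried were DESeq2 1.42.0, limma-voom 3.58.1, scaling by RLE, leaving the filter out, asking for a mean count of 50 or more, a replicate block, fitting only the groups compared, and omitting each library in turn. The members, lists and tests were chosen with earlier results of these data known. All 9 members are named. Of the other lists, those past the threshold in any comparison may be named, and up to 4 of smallest adjusted p. Ly6g, Lyz2, Csf3r, Prtn3, Ctsg, Cebpe and Tlr4 fall outside that rule and were chosen after their values were seen. The single-cell part of the study is not analysed here.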

Additional observations from a re-analysis of the deposited data

How the results depend on the processing

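The count of members called was 0 in each comparison under RLE scaling, a mean count of at least 50, DESeq2, limma-voom, the replicate block and, where it applies, only the groups compared. At an unadjusted p under 0.05 the edgeR counts were 5 for the Notch2 mutant with Hes1 loxP, 0 with the Hes1 deletion, 6 for the Hes1 deletion in wild type, 1 in Notch2 mutant, 6 and 4 for the Hes1 and Notch2 averages and 0 for the interaction, and DESeq2 gave 3, 0, 5, 1, 6, 3 and 0. The shares of all genes at that level are given above for edgeR and were not taken for DESeq2. With no filter, which adds genes of very low counts (25080 tested), the members called were 5 (Camp, Lcn2, Ltf, Ngp and S100a8) for the Notch2 mutant with Hes1 loxP, 6 (these and S100a9) for the Hes1 deletion in wild type, 2 (Ltf and Ngp) in Notch2 mutant, and 6 for each average, while the genes called in all went to 657, 135, 110, 184 and 853, and the cause was not tested. With 1 library left out the count ranged from 0 to 1 for the Hes1 average and was 0 in the other 6 comparisons. The genes called for the Notch2 mutant with Hes1 loxP ranged from 26 to 289 over those fits, and for the interaction from 0 to 12, with 63 called when no filter was used. Only the groups compared has no value for the averages and the interaction, which use all groups.

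Estimates near 0 changed sign. Mpo for the Hes1 deletion in wild type was 0.00 in the fit reported, -0.0009 by RLE, -0.0025 with no filter, -0.0125 by DESeq2, -0.0074 by limma-voom and -0.0321 with the replicate block, and -0.25 to 0.22 with 1 library left out. Elane for the Hes1 average was -0.0135 by limma-voom. With 1 library left out the range was -0.10 to 0.17 for Elane in the Hes1 average and -0.40 to 0.14 for the Hes1 deletion in wild type. For the Notch2 mutant with the Hes1 deletion it was -0.27 to 0.27 for Elane, -0.24 to 0.30 for Mpo, -0.14 to 0.0705 for S100a8, -0.38 to 0.0434 for Ltf and -0.21 to 0.028 for Lcn2. It was -0.24 to 0.0243 for Mpo in the Notch2 average, and for the interaction -0.0478 to 0.21 for S100a9, -0.0563 to 0.27 for Ngp and -0.44 to 0.11 for Retnlg. None of these was called.

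Same-numbered replicates had correlations of -0.07 to 0.10 between groups in their deviations, so the numbers were not taken to pair the libraries. With the replicate block 148 genes in place of 104 were called for the Notch2 mutant with Hes1 loxP and 325 in place of 253 for the Notch2 average, with 0 members in each. Retnlg, with 21 to 92 counts per library, had the largest SE of the 9 in each of the 4 simple comparisons.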
